A study of Caenorhabditis elegans with 2 samples.

Results

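The right piRNA cluster of *Caenorhabditis elegans* is a stretch of 3.7 Mb near the right end of chromosome IV, chrIV:13600001-17300001 in the ce11 assembly, where genes for 21U-RNAs lie more densely than in the rest of the chromosome. Of the 30000 regions of chromatin immunoprecipitation signal for SNPC-4 in the pooled list of the series, 2898 (9.66%) had their summit, the position of strongest signal, between these borders. The members were chosen by position alone. The cluster makes up 3.69% of the nuclear genome and held 11510 annotated piRNA genes, 74.9% of all of them, with 5762 on the plus strand and 5748 on the minus strand.

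SNPC-4 tagged with enhanced green fluorescent protein was precipitated from whole L3 larvae of mixed sex, strain OP179 (unc-119(ed3) III; wgIs179), in 2 biological replicates. The tagged protein comes from an inserted transgene on an unc-119(ed3) background, and both replicates carry it: there was 1 group and no second condition. The labels do not give the promoter that drives it. A control alignment entered the calling of each list, per the file descriptions, and is not analysed here. The 30000 regions are ranked by the authors' signal value, with 1 for the strongest, and 8.91% of them pass the authors' threshold on the irreproducible discovery rate, a measure of how well 2 replicates rank the same regions. These are called thresholded below, and they are the regions of highest signal, those ranked before 2673. Signal values are on the scale of their own list and are not comparable between lists. The number of reads behind them is not in the lists used here, so depth is unknown.

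21U-RNAs are the piRNAs of *C. elegans*, short RNAs that begin with uridine and guide the Argonaute PRG-1 to transcripts in the germ line. Most of their genes are transcribed one by one, each from its own start, with a short conserved element upstream. As part of SNAPc, SNPC-4 helps to recruit RNA polymerases to genes for small nuclear RNAs (snRNAs), and in germ cells it also gathers at the piRNA clusters. The larvae were taken whole, the germ line is only a part of their cells, and binding in fewer cells cannot be told apart from weaker binding in each cell.

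The upstream element was read from the annotation and the genome alone. Among all 8-letter words lying 60 to 30 bases upstream of the 14714 annotated piRNA 5′ ends of chromosome IV, CTGTTTCA was the most frequent, at 5092 genes (34.6%). Its first base lay at a median of -46 from the 5′ end (quartiles -47 and -45). In the cluster 3891 of the 11510 piRNA genes (33.8%) had it. Counted on both strands, the word occurred 989 times per Mb in the cluster and 73.8 times per Mb in the rest of the nuclear genome.

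The following loci show how a summit, the word and a 21U-RNA lie together. Each is printed 5′ to 3′ on the strand of the piRNA gene, with 60 bases upstream and the 21-base gene, from the RefSeq sequence of WBcel235, the assembly that ce11 names. Capitals mark the word and then the 21U-RNA. The first is at the only thresholded region of the cluster that had a piRNA gene with the word starting 0 to 100 bp downstream of its summit. The other 5 are at the strongest regions below the threshold with that arrangement, and were chosen after their values were seen.
21ur-14607: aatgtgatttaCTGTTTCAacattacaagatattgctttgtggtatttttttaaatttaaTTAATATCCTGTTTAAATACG
21ur-12392: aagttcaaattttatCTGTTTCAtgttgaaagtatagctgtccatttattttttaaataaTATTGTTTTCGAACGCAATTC
21ur-14445: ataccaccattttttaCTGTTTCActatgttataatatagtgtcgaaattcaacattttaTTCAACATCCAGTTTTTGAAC
21ur-9481: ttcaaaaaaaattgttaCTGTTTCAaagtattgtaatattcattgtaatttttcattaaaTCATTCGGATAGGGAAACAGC
21ur-8776: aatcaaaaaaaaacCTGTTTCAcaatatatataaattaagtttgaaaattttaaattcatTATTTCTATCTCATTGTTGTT
21ur-2256: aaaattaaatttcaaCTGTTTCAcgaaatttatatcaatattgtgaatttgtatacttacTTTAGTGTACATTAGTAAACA

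These loci lie at chrIV:16167683-16167763 (plus strand), chrIV:15260335-15260415 (minus), chrIV:15674536-15674616 (minus), chrIV:14654471-14654551 (plus), chrIV:14645585-14645665 (plus) and chrIV:14890052-14890132 (plus), in the order printed. At 21ur-14607 the summit lay at -82 bp, upstream of the 5′ end, in a region with signal 33.4 and rank 2207 in the pooled list, rank 3112 in replicate 1 and rank 2847 in replicate 2. The region at 21ur-12392, in an intron of Y73F8A.5, had its summit at -20 bp and ranked 3420 in the pooled list (signal 23.9), 2216 in replicate 1 and 12135 in replicate 2. The region at 21ur-8776, in an intron of talp-3, had its summit at -8 bp and ranked 3783 (signal 22.0), 9855 in replicate 1 and 6303 in replicate 2. All 6 regions were found in both replicate lists, at ranks that could differ widely between the replicates. At 21ur-14607, 21ur-9481 and 21ur-2256 the 5′ end nearest to the summit was that of another piRNA gene, 21ur-2814 at 23 bp, 21ur-11745 at 3 bp and 21ur-6759 at 15 bp, so the summits of closely spaced genes do not single out 1 of them. In all, 428 of the 2802 regions below the threshold had such a gene with the word 0 to 100 bp downstream, and 1 of the 96 thresholded regions. The share of all cluster positions with this arrangement was not counted. Thresholded and weaker regions also differ in base composition, given below, so these counts are a description only.

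Regions were dense in the cluster, and the excess was made up of regions below the threshold. The pooled list held 783 regions per Mb in the cluster, against 514 in the left piRNA clusters of the same chromosome (from 4.8 to 6.6 Mb), 280 in the rest of IV and 246 in the windows that lie at the same distance from the right ends of chromosomes I, II, III and V, called the right arms below. The cluster exceeded all other nuclear sequence 2.79-fold in the pooled list, 2.25-fold in the list of replicate 1 (644 against 286 per Mb) and 2.52-fold in that of replicate 2 (714 against 283). Regions covered 22.3% of its bases and 8.0% of all other nuclear bases. Both replicates placed the cluster above each of the other sets.

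Thresholded regions did not share this excess. Of the 2898 members 96 were thresholded (3.31%, exact 95% binomial interval 2.69 to 4.03), against 8.91% of the whole pooled list. Per Mb there were 25.9 of them in the cluster, 26.7 in the left clusters, 25.7 in the rest of IV and 25.9 in the right arms. The middle ranks, 2673 to 10000, showed the largest excess of the 3 classes of rank: 237 regions per Mb in the cluster against 96.1, 63.6 and 55.0 in the same 3 sets, which is 3.55-fold the density of all other nuclear sequence (2.97-fold and 3.13-fold in the replicate lists). After rank 10000 the excess was 2.78-fold. The median member ranked 13643 of 30000 with a signal of 9.37, within a range of 5.31 to 527, and the other nuclear regions had a median rank of 15166.5. A q-value under 0.05, as deposited, was found for 24.6% of members and for 27.3% of the other nuclear regions. The order was the reverse in the replicate lists, with 36.9% against 33.9% in replicate 1 and 41.4% against 39.0% in replicate 2. Intervals here cover counting error only. They treat regions as independent, which neighbouring regions are not.

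**Figure D1:**
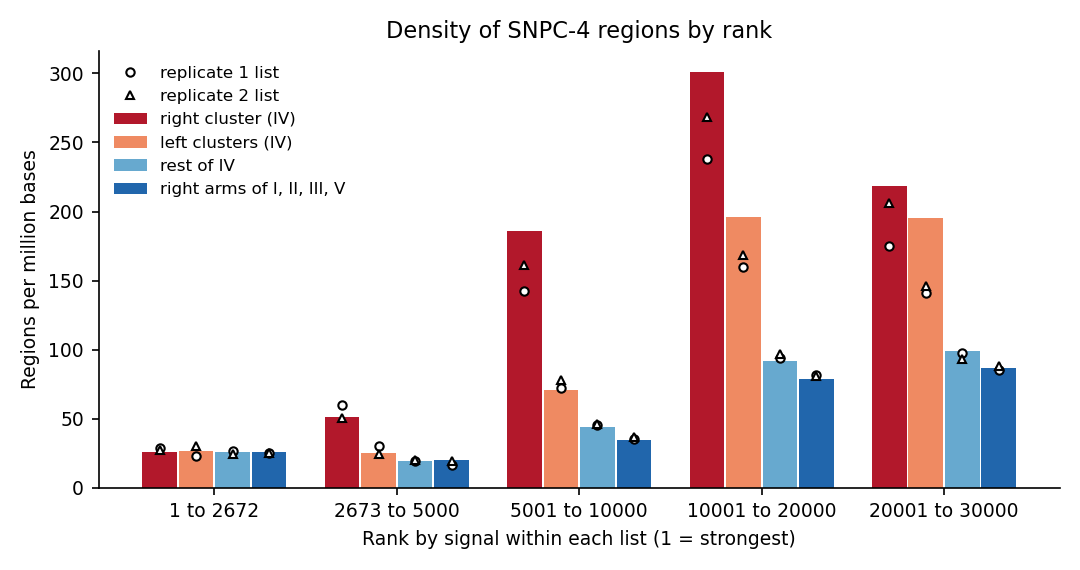
Regions per Mb by rank of signal, for the right cluster, the left clusters, the rest of chromosome IV and the right arms of I, II, III and V; bars are the pooled list, open circles and triangles the lists of replicates 1 and 2, ranked each on their own. All 4 bars are level in the thresholded band (25.7 to 26.7 per Mb), and the right cluster stands above the others in every later band.

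Thresholded and weaker members differed in where they lay. Below the threshold, the median distance from a summit to the nearest piRNA 5′ end was 72 bp for 2802 members (quartiles 33 and 156.75), and 61.5% of them (interval 59.7 to 63.3) were within 100 bp, where 38.9% of all positions of the cluster are. For the 96 thresholded members it was 589 bp, and 6 of them (6.25%, interval 2.33 to 13.1) were within 100 bp. At 500 bp the shares were 91.1% of the weaker members, 45.8% of the thresholded ones and 72.5% of all positions. Over all members 1730 (59.7%) had a piRNA 5′ end within 100 bp, against 1.42% of the other nuclear regions, which mostly lie where few piRNA genes are annotated.

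The share changed with rank in both replicates. In the pooled list it was 6.25% for the thresholded ranks, 47.1% for ranks 2673 to 5000, 67.2% for ranks up to 10000, 63.2% for ranks up to 20000 and 57.7% for the ranks after that. The lists of replicates 1 and 2 gave 16.0% and 10.8% in the first of these bands and 63.7% and 64.6% in the third. In all 3 lists the strongest band lay below the share of all positions and the last 3 bands lay above it. In the left clusters the share rose from 4.17% in the first band to 30.7% in the third, where 22.1% of all positions lie within 100 bp.

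**Figure D2:**
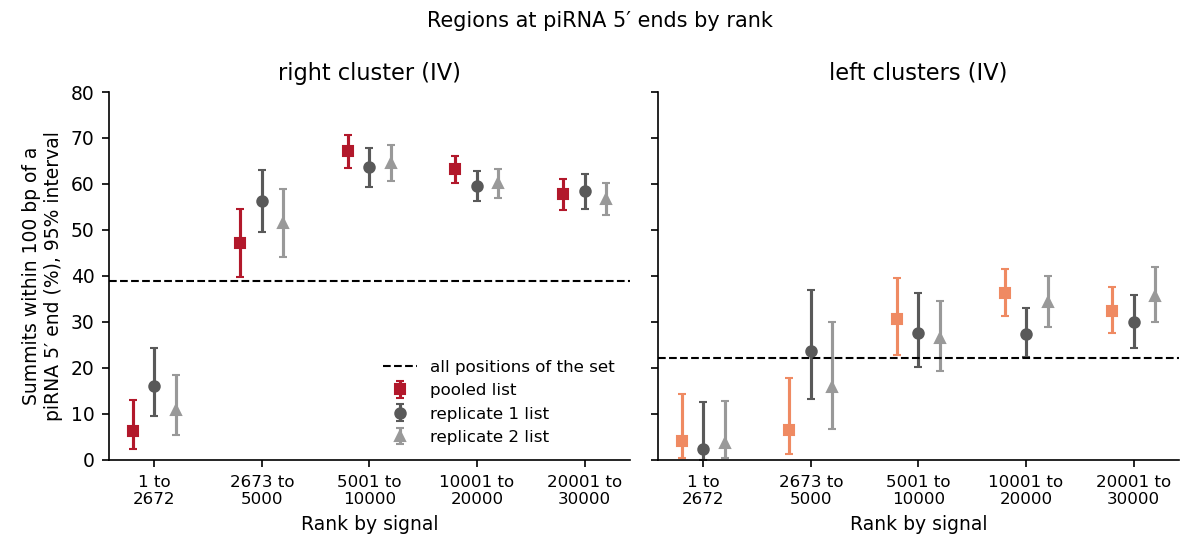
Percent of summits within 100 bp of an annotated piRNA 5′ end by rank of signal, in the right cluster and the left clusters, with exact 95% binomial intervals; squares are the pooled list, circles and triangles the replicate lists, and the dashed line is the share of all positions of the set (38.9% and 22.1%). The thresholded band lies below the line and the bands after rank 5000 lie above it in the right cluster, in every list.

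Base composition moved with these results. The cluster had 32.3% GC and the right arms 36.1%, and the bases within 100 bp of the members' summits had a median of 27.9% GC (42.8% for thresholded members, 27.4% for the middle ranks), against 35.3% around the summits of the right arms (43.8% and 38.8%). Stretches of 31 bases that occur once in the nuclear genome made up 87.4% of the cluster and 88.1% of the right arms. Positions and summits were therefore also compared within bands of GC content, a comparison added after these values were seen. Under 25% GC the cluster held 1219 regions below the threshold per Mb of that composition and the right arms 312 (3.91-fold); from 25 to 30% the ratio was 3.37-fold, from 30 to 35% it was 3.03-fold, and at 35% and over it was 2.01-fold (382 against 190).

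Within every band the weaker members also lay at piRNA 5′ ends more often than positions of that composition did. The shares within 100 bp were 74.2% of summits against 60.2% of positions under 25% GC, 73.0% against 57.6% from 25 to 30%, 55.8% against 37.2% from 30 to 35%, and 17.98% (interval 14.5 to 21.9) against 10.7% at 35% and over. Thresholded members were nearly all in the last band, with 88 of 96, of which 5 had a piRNA 5′ end within 100 bp. The like comparison for them is the last band, with 10.7% of positions and 17.98% of weaker members. Over the whole cluster these shares were 38.9% and 61.5%. What part of the remaining differences goes with composition on a finer scale was not tested.

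**Figure D3:**
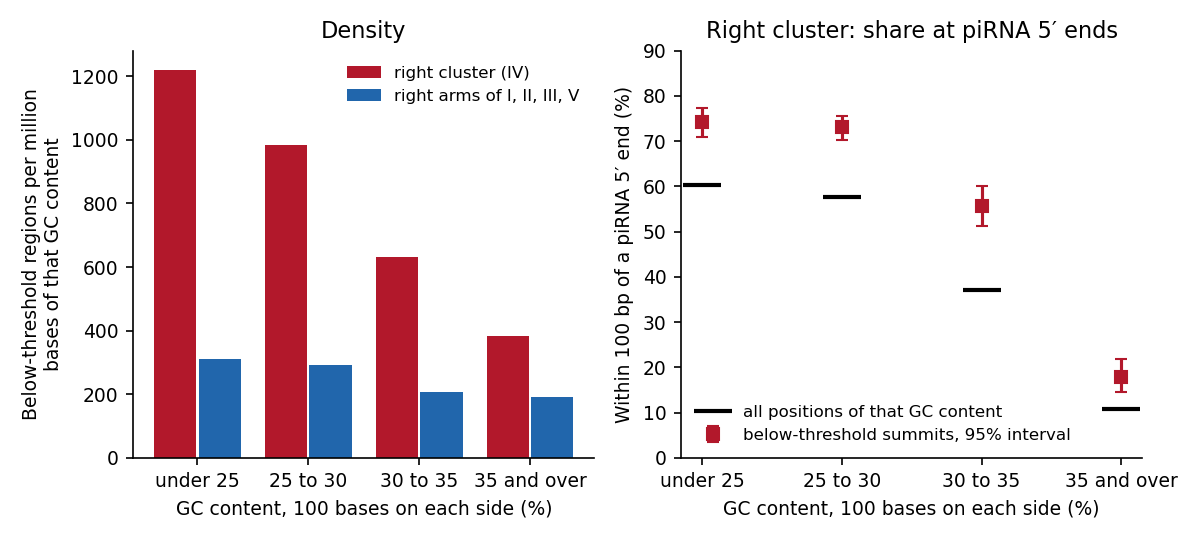
Left, regions below the threshold per Mb of each GC content in the right cluster and the right arms of I, II, III and V. Right, percent of such summits of the right cluster within 100 bp of a piRNA 5′ end, with exact 95% binomial intervals, beside the share of all cluster positions of that GC content (black bars): the summits lie above the positions in all 4 bands.

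Seen from the piRNA genes, summits peaked at the 5′ end and just upstream of it, on a high and even level. In 50-bp bins, 68.5 pooled summits per 1000 piRNA genes lay 50 to 0 bp upstream of the 5′ ends, the highest of the 20 bins from -500 to 500 bp. The mean over the bins within 100 bp was 1.30 times the mean over the bins beyond 300 bp (65.2 against 49.99 per 1000), and 1.28 and 1.24 times in the lists of replicates 1 and 2. It was 1.41 times at genes with the upstream word and 1.25 times at genes without it. For thresholded regions alone the ratio was 0.328 in the pooled list, and 0.725 and 0.506 for the strongest bands of replicates 1 and 2. It rests on few summits: 11 pairs of a thresholded summit and a piRNA gene within 100 bp in the pooled list. In the left clusters the ratio was 1.12 in the pooled list and 0.942 and 1.02 in the replicate lists, so a peak at the 5′ ends was not seen there in both replicates.

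The position relative to the direction of transcription was only slightly uneven. Of the 1730 members within 100 bp of a piRNA 5′ end, 899 were upstream of the nearest one, 817 downstream and 14 on it, with a median of -4 bp (quartiles -44 and 36). Where the nearest gene had the word the median was -8 bp, with 355 upstream and 293 downstream. Counting any gene rather than the nearest, 36.4% of members (interval 34.7 to 38.2) had a piRNA 5′ end 0 to 100 bp downstream of the summit, and 33.9% (32.2 to 35.7) had one 0 to 100 bp upstream of it, against 22.1% and 21.9% of all positions. Genes on both strands are interleaved in the cluster and regions were 290 bases wide at 2878 of the 2898 members, so a summit can serve several genes in these counts.

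**Figure D4:**
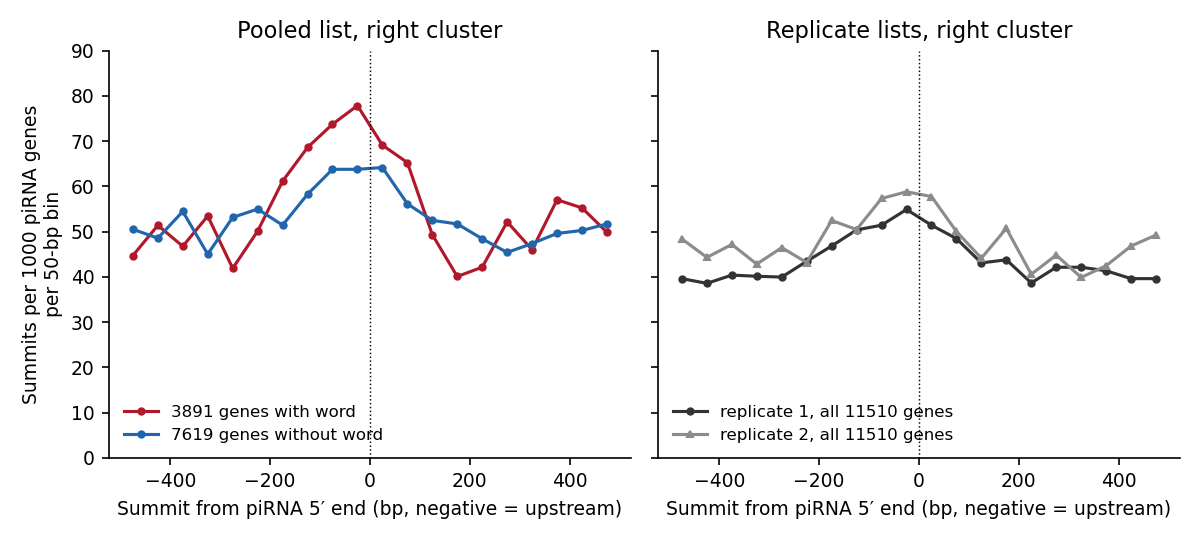
Summits per 1000 piRNA genes of the right cluster in 50-bp bins around the annotated 5′ end (negative is upstream), left for the pooled list at the 3891 genes with the upstream word and the 7619 without it, right for each replicate list at all 11510 genes. Both replicates are highest in the bin from -50 to 0, and both stay far above 0 at 500 bp.

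The word itself was found within 100 bp of 880 members (30.4%, interval 28.7 to 32.1), against 18.03% of all positions of the cluster and 1.72% of the other nuclear regions. It was at 1 of the 96 thresholded members (1.04%) and at 31.4% of the weaker ones. In the equally long strongest bands of replicates 1 and 2 it was at 8 of 106 regions (7.55%) and 5 of 102 (4.90%). Sequence around thresholded summits was richer in GC (median 42.8%, against 27.4% for the middle ranks). Shares of the word within bands of GC content were not counted. Asked the other way, 847 of 2873 occurrences upstream of an annotated piRNA gene of the cluster had a pooled summit within 100 bp (29.5%, interval 27.8 to 31.2), as did 160 of 788 occurrences without an annotated piRNA gene (20.3%, interval 17.5 to 23.3) and 15.7% of all cluster positions. The same 3 shares were 22.8%, 18.1% and 12.9% in replicate 1 and 25.2%, 16.8% and 14.4% in replicate 2. Outside both groups of clusters, 5.13% of 5716 occurrences without an annotated piRNA gene had a summit within 100 bp, and 5.55% of all positions did. A word in this window is a description of the sequence, not a site of binding.

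Most piRNA genes of the cluster had a region nearby, and 1.18% a thresholded one. A pooled summit lay within 500 bp of 9296 of the 11510 genes (80.8%, interval 80.03 to 81.5) and within 100 bp of 3013 (26.2%). Within 100 bp it was 28.8% of genes with the word (interval 27.4 to 30.2) and 24.8% of genes without it (23.9 to 25.8). The replicate lists gave 22.1% and 20.1% in replicate 1, and 25.01% and 21.2% in replicate 2. The intervals treat genes as independent, though a summit can lie near several of them. In the left clusters 57.4% of 2658 piRNA genes had a summit within 500 bp. Counting thresholded regions only, 136 cluster genes (1.18%) had one within 500 bp, and 1.74% and 1.49% with the strongest bands of replicates 1 and 2. The cluster held only 96 thresholded regions, which limits how many genes can have one nearby. The share of all positions within 500 bp of a thresholded summit was not counted, so the 1.18% shows nothing particular to piRNA genes. Of all cluster positions 60.6% lay within 500 bp of a pooled summit and 15.7% within 100 bp, against the 80.8% and 26.2% of piRNA genes.

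Along the cluster, the number of regions followed the number of piRNA genes. In its 37 bins of 100000 bp there were 146 to 486 piRNA genes (median 322) and 48 to 107 pooled regions (median 80). The bin chrIV:16000001-16100000 had the most piRNA genes, 486, and 107 regions, 96 in replicate 1 and 104 in replicate 2; chrIV:14600001-14700000 also had 107 regions, with 407 piRNA genes. The fewest regions, 48, were in chrIV:16900001-17000000, with 184 piRNA genes, and the fewest piRNA genes, 146, in the last bin, with 58 regions. Pearson's r between the 2 numbers was 0.887 and Spearman's rho 0.916 over the 37 bins (Pearson 0.822 and 0.849 in the replicate lists). Thresholded regions, 0 to 6 a bin, gave -0.066. The bins share a chromosome, the libraries and trends of base composition, and the values are a description.

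At the left edge of the cluster the number of piRNA genes rose steeply, and that of regions less so. The 10 bins before its left border held 0 to 24 piRNA genes and 11 to 47 regions (median 31). The first bin of the cluster held 221 piRNA genes and 59 regions, and the bin after the right border held 12 piRNA genes and 26 regions. The last region before the left border (rank 28182, signal 5.61) lay at -284 bp from 21ur-14554, upstream of it, and was found in replicate 1 but not in replicate 2. The first one inside was a thresholded region at smy-8 (rank 789, signal 63.8). At the right border the last member (rank 13663) and the first region after it (rank 23680) lay 25605 and 12762 bp from a piRNA 5′ end, and neither was found in a replicate list.

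**Figure D5:**
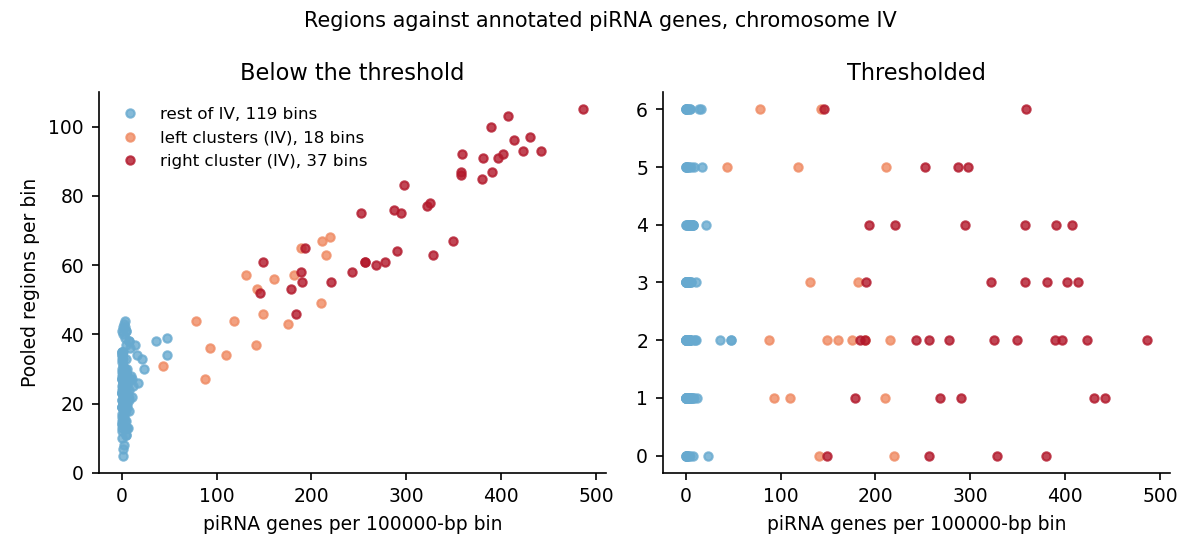
Pooled regions against annotated piRNA genes in bins of 100000 bp on chromosome IV, left for regions below the threshold and right for thresholded regions; each point is a bin of the right cluster (37 bins), the left clusters (18) or the rest of IV (119). Below the threshold the points rise with the number of piRNA genes (Pearson 0.910 in the right cluster), and the thresholded counts stay between 0 and 6 at any number.

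Thresholded members lay nearest to genes of several classes, with piRNA and protein-coding genes the most frequent. Of the 96 thresholded members, the nearest annotated 5′ end of any class was that of a piRNA gene in 31, a protein-coding gene in 29, a tRNA gene in 16, an unclassified noncoding RNA gene in 12, an snRNA gene in 4, a snoRNA gene in 3 and a long noncoding RNA gene in 1. Of the 878 members of the middle ranks it was a piRNA gene in 784 (89.3%). The cluster holds 11510 piRNA genes, 460 protein-coding genes and 32 tRNA genes, so a piRNA gene is by far the most numerous neighbour. How often each class is nearest to any position of the cluster was not counted, and the counts alone show no preference for a class. Thresholded summits sat close to tRNA genes (median -8.5 bp from the 5′ end) and snRNA genes (-40.5 bp) and farther upstream of protein-coding genes (-176 bp), and those with a piRNA gene as nearest lay at a median distance of 240 bp from it.

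The strongest member of all was at the snoRNA gene Y67A10A.14, chrIV:14326948-14327121 on the minus strand. Small nucleolar RNAs guide modification of other RNAs. The summit lay at -64 bp from the 5′ end, and the region had a signal of 527 and rank 43 in the pooled list, 260 and rank 47 in replicate 1, and 298 and rank 38 in replicate 2. The upstream element of snRNA genes, which SNAPc reads, was approximated in the same way as the piRNA word: of 8-letter words lying 80 to 35 bases upstream of 129 annotated snRNA genes, CGGAACCC was the most frequent (31 genes), and the first word that shared no 5 letters with it was TGTCGGTA (23 genes). The 80 bases upstream of Y67A10A.14 hold the first, beginning at -74, and those of the snRNA gene Y57G11C.35 hold the second, beginning at -47. Both are printed 5′ to 3′ on the gene's strand from the same RefSeq sequence, with the word in capitals, from chrIV:14327122-14327201 and chrIV:14765035-14765114.
Y67A10A.14: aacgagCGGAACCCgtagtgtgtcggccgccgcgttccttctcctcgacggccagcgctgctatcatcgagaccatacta
Y57G11C.35: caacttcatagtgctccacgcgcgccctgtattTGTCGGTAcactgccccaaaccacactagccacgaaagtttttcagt

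Either word, on either strand, was within 100 bp of 3 of the 96 thresholded members, 9 of 189 members in ranks 2673 to 5000 (4.76%) and 41 of 2802 members below the threshold (1.46%), so neither the snRNA words nor the piRNA word was found at most thresholded members. Among thresholded regions of the pooled list the share was 3.12% in the cluster, 2.08% in the left clusters, 2.60% in the rest of IV, 6.01% in the right arms and 4.16% in all other nuclear sequence. The strongest bands of replicates 1 and 2 gave 2.83% and 4.90% in the cluster.

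Other small RNA genes of the cluster were marked in part. Shares over all genes of the same classes in the genome are not given here. The counts below therefore show nothing particular to the cluster. Of 32 tRNA genes 16 had a thresholded region within 500 bp and 29 any region. The strongest was Y37A1B.t1, where the summit lay at -16 bp, with signal 384 and rank 60, and ranks 65 and 57 in the replicates. The next were Y105C5A.t2 (signal 85.2, ranks 446, 399 and 613 in the pooled list, replicate 1 and replicate 2) and Y73F8A.t1 (signal 75.4, ranks 559, 472 and 1054). Not all thresholded regions at tRNA genes ranked alike in the replicates. In the same order of lists, Y57G11C.t1 had ranks 1142, 9729 and 540, and Y105C5B.t1 had ranks 1739, 16893 and 1143. The suppressor tRNA gene sup-24 had rank 1836, with the summit at -1 bp. No region was within 500 bp of Y73F8A.t4, Y51H4A.t2 and Y51H4A.t6.

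Among 8 snRNA genes 5 had a thresholded region: Y57G11C.35 (rank 477, signal 82.1, summit at -47 bp) and smy-8, smy-9, smy-10 and smy-12, genes for SmY RNAs, small RNAs of nematodes linked to trans-splicing. The smy genes had pooled ranks of 789, 2524, 1597 and 2470. Replicate 2 ranked smy-9, smy-10 and smy-12 much higher (1453, 765 and 1014) than replicate 1 did (6978, 4119 and 7603). The fifth SmY gene of the cluster, smy-11, was just below the threshold at rank 3125, and the snRNA genes C35D6.6 and C35D6.7 had no region. Of 9 snoRNA genes 4 had a thresholded region. Of 10 miRNA genes 1 did, mir-52, with a summit at -317 bp (rank 1035).

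Among protein-coding genes 40 of 460 (8.70%, interval 6.28 to 11.7) had a thresholded region within 500 bp. The share over all 19971 nuclear protein-coding genes was 8.94%, so the count is not particular to the cluster. The third strongest member lay upstream of eelo-2, at -238 bp (signal 248, rank 86, ranks 100 and 84 in the replicates). The fifth and eighth lie within 1000 bp of each other between divergent genes: upstream of fdx-2 (-214 bp, rank 151) and upstream of ntl-11 (-125 bp, rank 225), a subunit gene of the CCR4-NOT deadenylase complex. The seventh lay at -243 bp from dld-1, which encodes dihydrolipoamide dehydrogenase, and 46 bp downstream of the start of the noncoding RNA LLC1.120 on the minus strand (rank 196). Others were upstream of rom-4, a rhomboid family gene (-194 bp, rank 242), tsr-2 (-170 bp, rank 310), ccar-1 (-431 bp, rank 317), dnbp-1 (-474 bp, rank 335) and mrps-7, for a protein of the small subunit of the mitochondrial ribosome (-166 bp, rank 419). The region at linc-60, a long intergenic noncoding RNA, ranked 333, and 1 region at rank 334 had no 5′ end within 500 bp, the nearest being that of the tRNA gene F13G11.t1 at -935 bp. All 15 were found in both replicate lists, at ranks between 38 and 738. All 15 are thresholded, so this is not independent of the threshold. None of the 15 had the piRNA word within 100 bp.

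At the strongest members for which a piRNA gene was nearest, the summits mostly lay off the 5′ ends. The first was at -366 bp, upstream of 21ur-10153, in an exon of lin-66, a gene of the larval timing pathway (signal 199, rank 112, ranks 106 and 149 in the replicates). The second was 195 bp downstream of the start of 21ur-916 (signal 159, rank 154, ranks 189 and 141). Of the 10 strongest such regions the one at 21ur-8949 was the only one within 100 bp, at -85 bp (signal 70.9, rank 642). It ranked 396 in replicate 1 and 1855 in replicate 2. The other 9 summits lay 144 to 591 bp away, 4 of them in introns of atln-2, Y57G11C.22, dmd-6 and Y105C5A.15, and none of the 10 had the piRNA word. The weakest thresholded member, at -725 bp from 21ur-14338, had rank 2657 and signal 29.2. The strongest member below the threshold, at the tRNA gene Y65A5A.t1 (summit at -31 bp), had rank 2690 and signal 28.9.

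Members below the threshold lay mostly outside coding genes or in introns. Of the 11510 piRNA 5′ ends 2.86% were in an exon of a protein-coding transcript, 30.04% in an intron and 67.1% outside such genes. The summits of the middle ranks had 4.44% (interval 3.18 to 6.02), 31.3% and 64.2%. Those after rank 10000 were in exons more often, at 8.0% (interval 6.83 to 9.31), with 29.8% in introns and 62.2% outside. All positions of the cluster had 17.6%, 26.6% and 55.8%. Thresholded summits were in exons at 5.21% and outside genes at 72.9%.

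The 2 replicates found many of the same members but did not rank the weaker ones alike. A region of each replicate list overlapped 1345 members (46.4%, interval 44.6 to 48.2), against 39.2% of the other nuclear regions. By rank band the shares were 100%, 93.1%, 70.1%, 37.3% and 21.5% in the cluster and 99.1%, 90.7%, 62.9%, 28.2% and 10.2% in the other nuclear regions. The pooled list was made from the alignments of both replicates, so overlap with them is not independent of it. The first band also passed the threshold on the irreproducible discovery rate, so its high shares are not independent of that threshold. It is the band of highest signal as well, and the part of the threshold in its shares was not tested. The replicate lists themselves cover 17.8% and 20.0% of the bases of the cluster and 7.93% and 7.95% of other nuclear bases, and denser lists overlap more often; the part of this in the difference was not tested. Asking for a replicate summit within 100 bp of the pooled summit in both lists left 24.0%. Over the members found in both, Spearman's rho between the ranks in replicates 1 and 2 was 0.209 (n = 1345). Over those below the threshold it was 0.039 (n = 1249). The same values were 0.571 (n = 326) and 0.339 (n = 279) in the left clusters. For the other nuclear regions they were 0.606 (n = 10618) and 0.265 (n = 8092). Regions found in both lists, and those below the threshold, are selected sets, and the effect of that selection on rho was not tested. These correlations share the chromosome and the control and are a description.

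Genes of 21U-RNA transcription and processing lie on several chromosomes and are given as a count from a list of 20, of which 19 were in the annotation. A thresholded region lay within 500 bp of the 5′ end of 2 of them, tost-1 (rank 1897) and pid-3 (rank 2262), which encode a partner and a subunit of PETISCO, the complex that, with PID-1, takes part in the processing of 21U-RNA precursors. Of all 19971 nuclear protein-coding genes 8.94% had a thresholded region and 34.8% any region at that distance, and with 19 genes nothing particular to the list can be read from its counts. Another 7 had a region below the threshold, from tofu-1 (rank 3262) and tofu-6 (rank 3674) to unc-130 (rank 19033). The other 10, among them snpc-4, prde-1, tofu-4 and prg-1, had no region within 500 bp.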

How the data were processed

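Chromatin immunoprecipitation of eGFP-tagged SNPC-4 was measured in 2 biological replicates of whole L3 larvae, 1 group. The authors deposited lists of 30000 regions on ce11, pooled and per replicate, and the smaller thresholded list. Per the file descriptions, each list was made from alignments of the sample or samples and a control. Which aligner, caller and threshold they used is not given in the sources used here, nor is the depth. The signal value and the −log10 q-value of each region are used as deposited, on the scale of each list. Lists on ce10 were not used.

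Ranks, summits and 1-based coordinates were computed with Python 3.11.15, numpy 2.4.6, pandas 2.3.3 and scipy 1.17.1, and drawn with matplotlib 3.10.9. No region ended beyond a chromosome of RefSeq WBcel235, from which genes and sequence were read. Shares have exact Clopper-Pearson 95% intervals. No test was made: there is 1 group, and regions are not replicates. The counting functions were tested on simulated positions. Replicates of this kind may share culture and handling beyond what the labels say. Words of 8 letters were taken as the most frequent in the stated windows, exons are those of protein-coding transcripts, and an overlap is 1 bp or more unless stated.

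The named loci are the 15 strongest members, the 10 strongest thresholded ones with a piRNA gene nearest, thresholded ones with a piRNA gene and its word 0 to 100 bp downstream, extreme bins, and regions beside the borders and the threshold. Loci outside this rule are the 5 weaker sequence loci, the small RNA genes of the cluster and members of the pathway list. The members and lists were chosen with earlier results of these data known. Alternatives were each replicate alone, borders moved inwards, thresholded peaks or their stronger 50%, other windows and overlaps, and, added later, bands of GC content.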

Additional observations from a re-analysis of the deposited data

How the results depend on the processing

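Of 49 alternatives 28 moved a value beyond its interval or by more than 1.5 times. The replicate lists alone gave 2383 and 2642 members, median ranks of 13236 and 13953, thresholded shares (their strongest regions, as many as in the thresholded list) of 3.86 to 4.45%, 88.2 to 89.0% of members within 500 bp of a piRNA 5′ end, 34.7 to 34.96% with a piRNA 5′ end 0 to 100 bp downstream, 29.0 to 30% with the word, and 69.6 to 73.9% of piRNA genes with a summit within 500 bp. Moving the borders inwards by 100000 bp kept all of these values within their limits. With thresholded peaks only, 45.8% of members had a piRNA 5′ end within 500 bp, 5.21% one 0 to 100 bp downstream and 1.04% the word, and 1.18% of piRNA genes had a summit; with the stronger 50% of that list these were 42.3%, 3.85%, 0% (0 of 52 members, upper limit 6.85%) and 0.582%, and the list held 1.79% of members. Windows of 250 and 1000 bp gave 82.1% and 92.4% of members and 54.6% and 95.4% of piRNA genes. Windows of 50 and 200 bp gave 19.9% and 56.6% with a piRNA 5′ end downstream, and windows of 50 and 150 bp gave 16.3% and 40.9% with the word. Both replicates overlapped 30.2% of members by at least 50% of the region, and had summits within 100 bp at 24.0%. Wider windows hold more by construction and stricter overlaps fewer; the cause of the moves with thresholded peaks was not tested. The bands of GC content are given with the base composition. No paired analysis was possible because there was only 1 group. Depth is unknown.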
